A study of Mus musculus with 2 samples.

Results

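Alveolar type II (AT2) cells of the mouse lung were examined in 2 single-cell libraries, one from animals given control media (CM) and one from animals given tumor conditioned media (TCM), with 31944151 and 36648719 UMIs over all droplets. AT2 cells were droplets that held 500 or more UMIs (unique molecular identifiers, each standing for 1 captured RNA molecule) and 200 or more genes, with mitochondrial genes taking no more than 10% of the UMIs. They also had at least 5 UMIs of Slc34a2, Sftpd, Cxcl15, Hc and Lamp3 together, at least 100 UMIs of Sftpc, at most 1 UMI of the alveolar type I (AT1) genes Ager, Rtkn2 and Akap5 together, and at most 1 UMI of Cdh5, Ptprc and Col1a2 together. This gave 137 cells of the 15695 that passed the filters on depth and mitochondrial UMIs, 106 of 7988 in CM and 31 of 7707 in TCM. The levels of these 12 genes chose the cells, so they are given below as a description only. The lung tissue of both libraries was taken from BALB/c females, 9 to 10 weeks old, that had been injected intravenously for 3 weeks. TCM was culture medium without serum in which 4T1 mouse breast tumors had been kept, and CM was the same medium kept in parallel without tumor tissue. Each group had 1 library, and how many mice entered a library was not stated. No difference between CM and TCM could therefore be set against the spread between mice, no test was made, and every interval below is a 95% interval that covers counting error only.

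AT2 cells are the cuboidal cells of the alveolus. They make pulmonary surfactant, the film of phospholipid and surfactant proteins that keeps alveoli from collapsing, store it in lamellar bodies and release it at the cell surface. They also secrete proteins of innate defence such as lysozyme and surfactant protein A, carry MHC class II molecules, move sodium and water out of the airspace, and divide and turn into AT1 cells, the flat cells of gas exchange, when the epithelium is repaired. The genes described here lie outside lipid synthesis.

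The AT2 label was checked with 20 genes that the selection did not use, among them Sftpa1 and Sftpb (surfactant proteins), Abca3 (the lipid pump of the lamellar body), Napsa (the protease that processes surfactant protein), Etv5 and Nkx2-1 (transcription factors of AT2 cells) and Muc1. All 20 were higher in the AT2 cells than in endothelial droplets (at least 2 UMIs of Cdh5), leukocyte droplets (at least 1 UMI of Ptprc) and free RNA in both libraries. Free RNA is RNA outside cells that every droplet takes up, and it was read from droplets of at most 50 UMIs. Against AT1 droplets (at least 5 UMIs of Ager, Rtkn2 and Akap5, and over 0.4% of UMIs), 16 of the 20 were higher. In the AT2 cells of CM, Sftpa1 reached 1842 CP100k (UMIs per 100000 UMIs of the population), against 12.5 CP100k in AT1 droplets, 7.19 in endothelial droplets and 258 in free RNA. The 4 that were not, Nkx2-1, Cldn18, Epcam and Cdh1, are shared by alveolar epithelial cells, and Nkx2-1 stood at 12.9 CP100k against 32.0 in AT1 droplets and Cldn18 at 36.8 against 503 in CM.

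The selection kept the shallow AT2 droplets and left most of the deep ones out. Of the droplets that passed the limits on the surfactant-cell genes, 458 in CM and 399 in TCM, the limit on AT1 genes removed 333 and 361. The median depth of the removed droplets was 6569 UMIs for CM and 6760 for TCM, against 1465 and 1756 for the AT2 cells. The removed droplets held a median of 15.8 UMIs of the AT1 genes per 10000 UMIs in CM and 12.8 in TCM. In AT1 droplets the same medians were 152 and 180 per 10000.

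**Figure D1:**
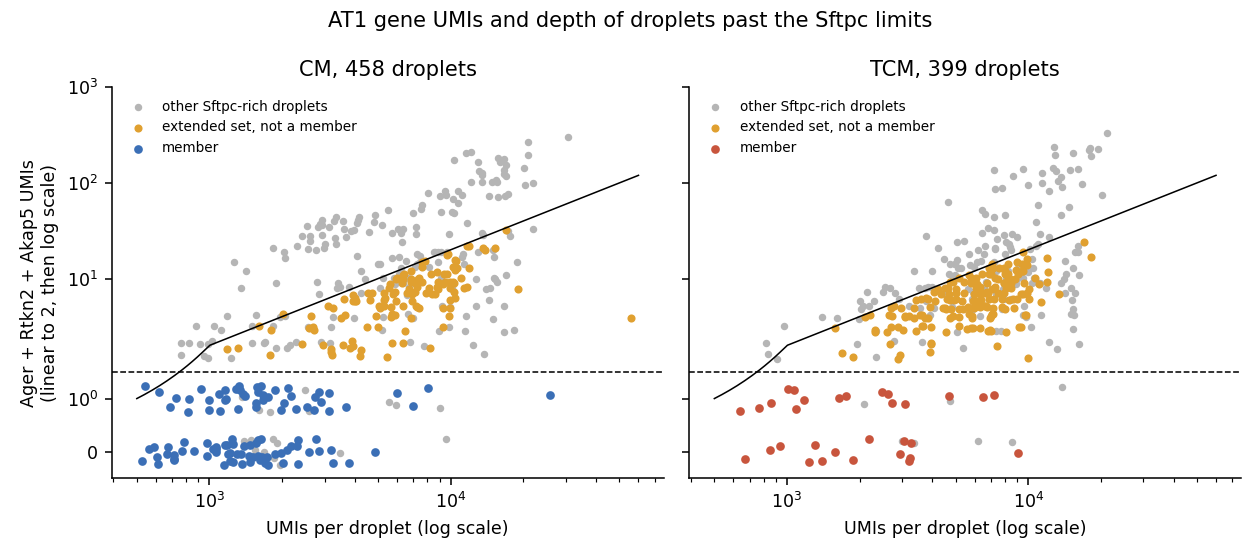
Each point is a droplet that passed the limits on Sftpc and on the 5 other AT2 genes, placed by its UMIs (horizontal, log scale) and by its summed UMIs of Ager, Rtkn2 and Akap5 (vertical, spread by up to 0.25 so that points do not cover each other), in CM (left) and TCM (right). The dashed line is the limit of 1 UMI and the solid line 1 UMI per 500 UMIs. The 106 CM and 31 TCM AT2 cells lie below the dashed line at a median of 1465 and 1756 UMIs, and 333 CM and 361 TCM droplets lie above it.

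Droplets close to each limit were few or many depending on the limit. In CM, 46 cells had an AT1 sum of 1 and 31 droplets just outside had a sum of 2, and in TCM the numbers were 16 and 17. A sum of 1 for Cdh5, Ptprc and Col1a2 was held by 24 CM and 4 TCM cells, and a sum of 2 by 11 CM droplets and 1 TCM droplet just outside. Between 100 and 119 UMIs of Sftpc were found in 11 CM and 3 TCM cells, and from 80 to 99 UMIs in 28 CM droplets and 1 TCM droplet. The sum of the 5 other genes was 5 in 5 CM cells and in 0 TCM cells, and 4 in 1 CM droplet and in 0 TCM droplets.

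Many CM droplets had counts of their abundant genes that differed from each other by no more than sampling noise, and what gave rise to them was not tested. Counts were compared for every pair of AT2 cells of a library by a chi-square over genes expected at 5 UMIs or more, with the rest as 1 class. Droplets that differed from each other by no more than sampling noise (a chi-square per degree of freedom averaging at most 1.5) were put into 1 group. Shallow droplets have few genes above that expectation, so their groups rest on the most abundant genes. In CM, 71 of the 106 cells (67.0%, 57.2 to 75.8%) fell into 14 such groups, the largest of 13 droplets, which left 49 distinct profiles. In TCM, 9 of the 31 (29%, 14.2 to 48.0%) fell into 3 groups, which left 25. Both intervals count droplets as independent, which those of a group are not, so they are likely too narrow. The median over all pairs was 10.4 in CM and 12 in TCM, while the median to the nearest droplet was 0.890 in CM and 3.13 in TCM. No barcode of an AT2 cell was shared between the libraries, against 93 barcodes shared by all cells that passed the filters.

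The repeated profiles were not all of one kind. The group of 13 had a median of 1566 UMIs, of which Sftpc took 8.35%, and carried 56.0 endothelial, 51.1 mesenchymal and 31.1 lymphocyte marker UMIs per 10000, with 24.3 per 10000 of the T and NK cell chemokine Ccl5. A group of 12 held 24.9% Sftpc and 11.8 endothelial marker UMIs per 10000. A group of 7 held 532 MHC class II UMIs and 303 UMIs of Cst3 (cystatin C, abundant in dendritic cells and macrophages) per 10000. Markers of the endothelial, mesenchymal and lymphocyte lists took over 0.5% of the UMIs of 45 CM and 3 TCM cells.

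**Figure D2:**
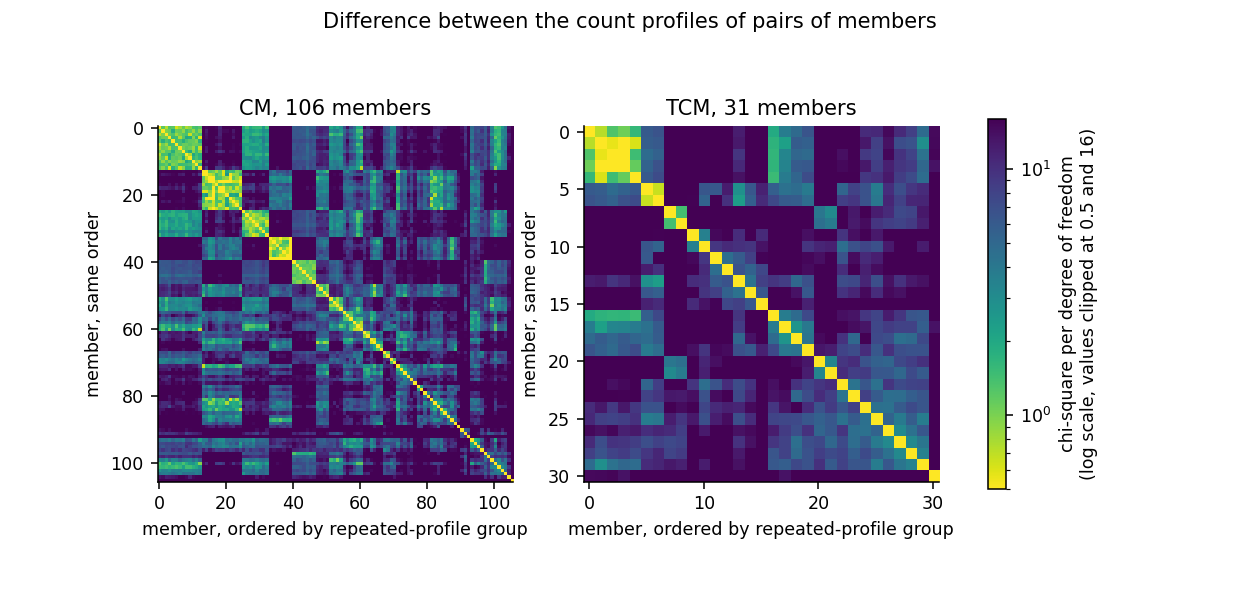
Each square is a pair of AT2 cells of CM (left, 106 cells) or TCM (right, 31 cells), ordered by group, and its colour is the chi-square per degree of freedom between their counts (log scale, clipped at 0.5 and 16, yellow and green for the pairs most alike, each droplet with itself on the diagonal). The bright blocks along the diagonal are the 14 groups in CM, up to 13 droplets wide, and the 3 groups in TCM.

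Droplets were therefore compared in 3 sets, and the gene lists were computed in each. The first is the 137 AT2 cells as selected. In the second, called cleaned AT2 cells, each repeated profile was counted once and droplets with over 0.5% UMIs of other lineages were left out, which left 31 CM cells with 71971 UMIs and 22 TCM cells with 62427 UMIs. The last, called the extended AT2 set, was made the same way after the AT1 limit had been scaled to depth, at 1 UMI per 500 UMIs. It held 153 CM cells with 995402 UMIs and 204 TCM cells with 1224210 UMIs, at nearly equal median depths of 5942 and 5934.5 UMIs. The cleaned and the extended sets were defined after the data had been seen. Of the selected cells, 25 in CM and 21 in TCM were also in the extended set. Mitochondrial genes took a median of 2.28% of UMIs in the selected CM cells and 3.60% in TCM, and 2.93% and 3.38% in the extended set. Free RNA was estimated at 125 UMIs per cell in CM and 267 in TCM for the selected cells, or 6.33% and 10.9% of their UMIs, and at 1.92% and 4.90% in the extended set. This estimate rests on erythroid and club cell genes, and all free RNA percentages below use it. An estimate from lymphocyte genes ran the other way, with 293 UMIs per cell in CM and 241 in TCM for the selected cells, and 457 and 352 for the extended set. It took a capped mean over cells where the first took the median, so they are not measured alike. The limit on other lineages also counted lymphocyte genes in the extended set. Sftpc took 13.8% of the UMIs of the selected CM cells and 18.7% in TCM, against 22.3% and 22.7% in the extended set.

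AT2 cells as selected made up 1.33% of the filtered cells in CM (1.09 to 1.60%) and 0.402% in TCM (0.273 to 0.570%). These intervals count repeated profiles as separate cells. With the scaled AT1 limit alone the shares were 3.12% and 2.96%. For the extended set they were 1.92% (1.63 to 2.24%) and 2.65% (2.30 to 3.03%). TCM was thus lower by the first measure and higher by the last. The extended set counts repeated profiles once over all filtered droplets, in which they were not sought. Before that step it held 198 of 7988 droplets in CM and 220 of 7707 in TCM.

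Over all genes the selected cells of the libraries differed widely, and the cells of the extended set little. Of 292 genes with at least 100 UMIs over both libraries in the selected cells, 44 were at least 1.5-fold higher in TCM (15.1%) and 69 at least 1.5-fold lower (23.6%), with a median log2 ratio of TCM over CM of −0.23. In the cleaned cells 131 genes had enough UMIs, 21 of them higher (16%) and 31 lower (23.7%), with a median of −0.22. The extended set had 2439 genes with enough UMIs, of which 93 were higher (3.81%) and 44 lower (1.8%), and the median was 0.02 with a 10th percentile of −0.30 and a 90th of 0.40. The gene-by-gene account below uses the extended set, with values of the selected and the cleaned cells for some genes and lists, and the plot of gene lists shows all 3 sets. Of the 12 genes named as higher in TCM in the extended set, 4 were above 0 in the selected cells and 10 in the cleaned cells, with no ratio for 1 and 2 of them. Of the 12 named as lower, 11 were below 0 in the selected cells and 5 in the cleaned cells, where 4 had no ratio.

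The genes with the largest differences in the selected cells were mostly not those of the extended set. The 12 named genes lower in TCM there included Ccl5, at 117 CP100k in CM and 2.63 in TCM (log2 ratio −5.48, −8.53 to −3.61), Cst3 at 447 and 67.0 CP100k (−2.74, −3.17 to −2.33), the MHC class II gene H2-Eb1 at 110 and 14.5 CP100k (−2.93, −3.95 to −2.06) and the fibroblast gene Inmt (−2.43). In the cleaned cells the log2 ratio was −1.38 for Ccl5, −3.32 for Cst3 and −2.79 for H2-Eb1. The cleaning counted Ccl5 and Inmt among its other-lineage markers, so their ratios after it are partly set by it. It used no marker of macrophages or dendritic cells. In the cleaned CM cells, 1 droplet held 124 of the 311 Cst3 UMIs and 1 held 27 of the 88 H2-Eb1 UMIs. In the extended set, made with the same limit on other lineages, the log2 ratio was −0.75 for Ccl5 (15 and 11 UMIs), −0.45 for Cst3 and −0.19 for H2-Eb1. Inmt, with 6 and 28 UMIs, was higher in TCM there (1.92). The 12 named genes higher in TCM were Lrg1, Lcn2, Malat1, Car8, Chil1, Neat1, Rnase4, Lyz2, Lyz1, Ctsc, Iqgap1 and Ppp1r14c, with log2 ratios from 0.58 to 2.0. Of these 12, 9 were above 0 in the extended set and 1, Neat1, was past 1.5-fold. Of the 12 lower genes, 8 were below 0 there and 4 past 1.5-fold. The highest of all, Lrg1 (a secreted glycoprotein of the acute phase), stood at 20.1 CP100k in CM and 80.2 in TCM in the selected cells (2.0, 1.41 to 2.60). Its ratio was −0.15 in the extended set, and 1.03 in the selected cells without the droplet richest in it in each library. Here and below, such a ratio leaves out only the UMIs of the gene or list in those droplets. Their other UMIs stay in the totals.

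**Figure D3:**
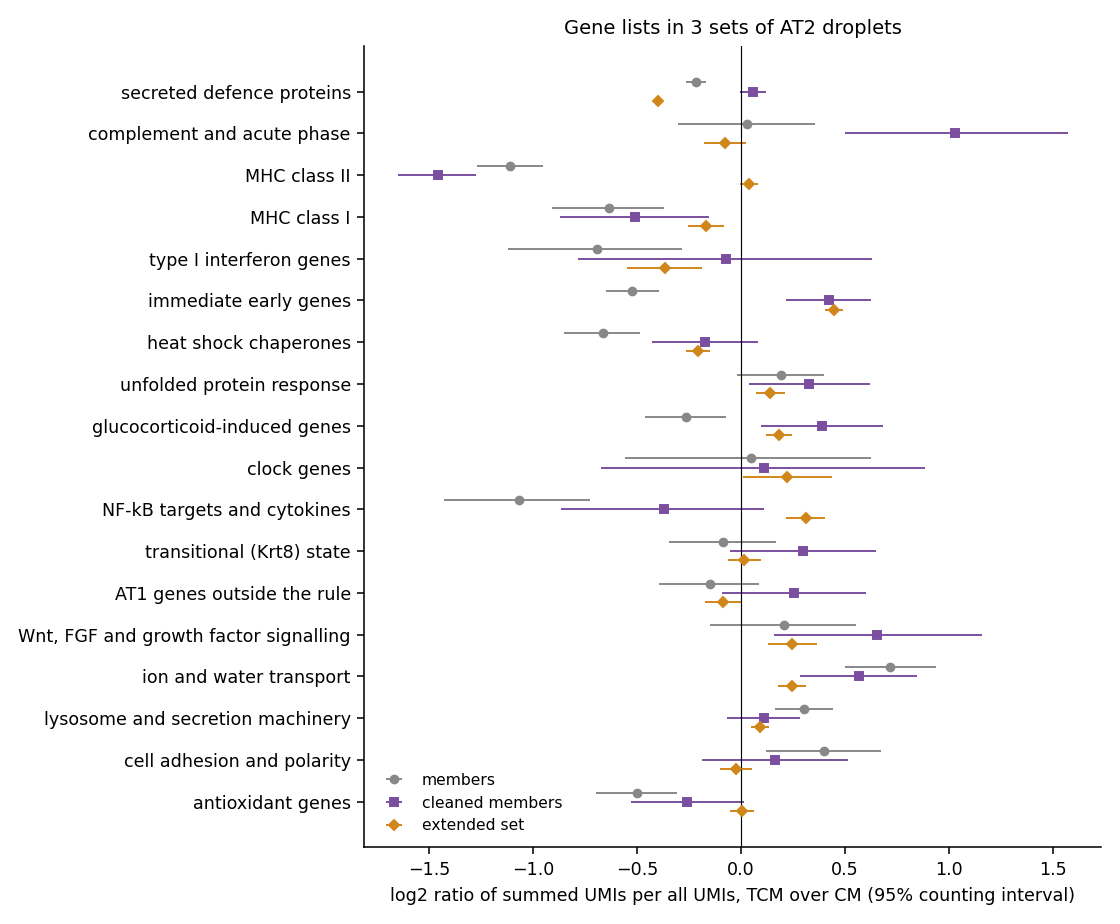
For 18 gene lists the log2 ratio of summed UMIs per all UMIs, TCM over CM, is drawn with its 95% counting interval for the selected AT2 cells (grey circles), the cleaned AT2 cells (purple squares) and the extended set (orange diamonds); cell cycle genes are left out because their sum rested on 1 droplet. The extended set lies near 0 for most lists, from −0.40 for secreted defence proteins to 0.45 for immediate early genes, while the selected cells range from −1.11 for MHC class II to 0.72 for ion and water transport.

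Immediate early genes were higher in TCM in the extended set. These genes encode transcription factors and regulators, such as Fos and Egr1, whose RNA appears within minutes of a stimulus and which also respond to the handling of tissue. The list of 20 genes summed to 745 CP100k in CM and 1017 in TCM (log2 ratio 0.45, 0.41 to 0.49). Of the 19 genes with at least 100 UMIs, 6 were past 1.5-fold higher and 0 lower, beside 3.81% and 1.8% of all genes. Of the 19, 18 were above 0, with a median of 0.32 beside 0.02 over all genes. Fosb (chr7:19302696-19310051, minus strand, GRCm38) had the largest difference, from 9.24 CP100k in CM to 22.9 in TCM (1.31, 0.96 to 1.66). Fos (chr12:85473890-85477273, plus strand) stood at 81.7 and 133 CP100k (0.70, 0.58 to 0.83). Egr1, a zinc finger factor, stood at 55.7 and 97.3 CP100k (0.81, 0.66 to 0.95), Klf6 (chr13:5861482-5870394) at 15.3 and 26.5 (0.80, 0.52 to 1.09), Junb at 57.6 and 88.1 (0.61, 0.47 to 0.76) and Ier2 at 41.2 and 62.2 (0.59, 0.42 to 0.77). The partner Jun was nearer to its CM level, at 145 and 180 CP100k (0.32, 0.22 to 0.41). Atf3 was at 39.4 and 43.1 CP100k (0.13, −0.06 to 0.32), and Cebpd, the 1 gene below 0, at 36.7 and 31.7 CP100k (−0.21).

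**Figure D4:**
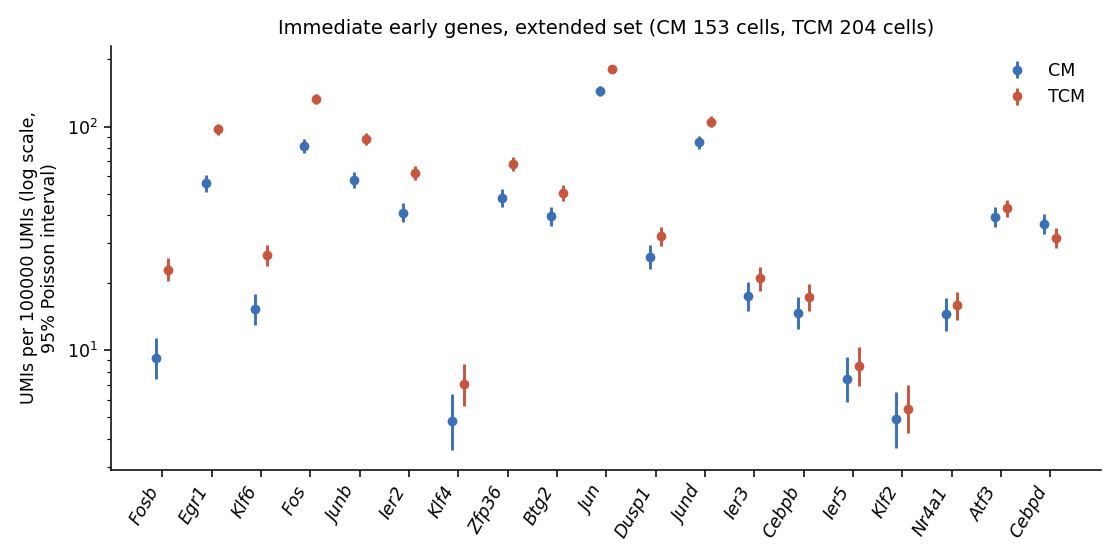
Levels of the 19 immediate early genes with at least 100 UMIs in the extended set (UMIs per 100000 UMIs, log scale, with 95% Poisson intervals), CM in blue and TCM in red, ordered by their ratio. The intervals of Fosb, Egr1, Klf6, Fos, Junb and Ier2 lie apart with TCM above CM, those of the genes from Ier3 to Atf3 overlap, and Cebpd is the 1 gene with CM above TCM.

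The cyclic AMP response element, a promoter element of many immediate early genes, has the core letters TGACG. As a description, RefSeq promoters of build GRCm38.p6 (250 bases before to 50 after the start site) were searched for these 5 letters on both strands. They were in 10 of the 16 promoters matched for the list and in 20.8% of all 32851 promoters, and the 8 letters TGACGTCA in 2 of the 16 and in 1.79% of all. Of the 4 matched genes past 1.5-fold, 3 hold TGACG and 0 hold the 8 letters. Nr4a1, Dusp1, Cebpb, Atf3, Btg2, Klf2 and Klf4, which were not past 1.5-fold, also hold TGACG. Jun, Jund, Ier3, Ier5 and Zfp36, also not past it, do not. The 2 promoters with the 8 letters are those of Dusp1 and Btg2. For the 3 past 1.5-fold, the 29 bases around the occurrence nearest to the start site are shown along the gene's own strand, with TGACG in capitals. A link between the letters and the ratios was not tested.
Fos, chr12:85473812-85473840: agttccgcccagTGACGtaggaagtccat
Fosb, chr7:19310089-19310117: tggagttgcgggTGACGcaagcgcggggg
Junb, chr8:84978838-84978866: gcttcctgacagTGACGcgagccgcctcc
The letters begin 66, 60 and 106 bases before the start site. The Klf6 window of 250 bases before to 50 after the start does not hold them, and Egr1 and Ier2 were not matched.

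More cells of TCM had high sums of immediate early genes. After each cell was thinned to 1000 UMIs, the list's sum had a 10th percentile, median and 90th percentile of 0, 4 and 19.1 UMIs in the 150 CM cells and of 1, 6 and 27 in the 203 TCM cells. At least 10 UMIs were found in 40 CM cells (26.7%, 19.8 to 34.5%) and 78 TCM cells (38.4%, 31.7 to 45.5%), with 18 and 19 cells between 8 and 12. Without thinning, 24.2% of CM and 36.8% of TCM cells had at least 1% of their UMIs from the list. This is a range of a continuous score and not a cell type. Over the alternatives the list ratio in the extended set stayed between 0.39 and 0.70. In the other populations the ratio of the same list was 0.03 in AT1 droplets, −0.02 in endothelial droplets, 0.65 in leukocyte droplets and 0.20 in free RNA. It was −0.52 in the selected cells, with 1173 CP100k in CM and 817 in TCM, and 0.42 in the cleaned cells. There 1 TCM droplet held 153 of the 430 TCM UMIs of the list. With the list UMIs of the richest droplet of each library taken out and the totals kept, the ratio was −0.03. In the selected cells Fosb was at −0.07, Egr1 at −0.18, Fos at −0.04, Klf6 at −0.31, Junb at −1.07 and Ier2 at −0.34. With 1 library per group, handling of the tissue and treatment cannot be told apart in these values.

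Hbegf, Gem, Gng12 and Neat1 were also among the 12 genes named as higher in the extended set. Hbegf, which encodes an epidermal growth factor receptor ligand of wound repair, stood at 4.82 CP100k in CM and 13.6 in TCM (1.49, 1.02 to 1.99). Its ratio was 1.57 in the selected and 1.91 in the cleaned cells, on fewer than 100 UMIs over both libraries in each set. It was the named gene with the largest lower bound of its interval, and its ratio was −0.12 in AT1 droplets, 0.16 in endothelial droplets and 0.39 in free RNA. Gem, a small GTPase, stood at 15.9 and 27.0 CP100k (0.77) but at −0.69 in the selected cells, and Gng12, a G protein subunit, at 3.62 and 7.68 (1.09) and at 0.87 in the selected cells. Neat1, a nuclear long noncoding RNA (chr19:5824708-5845478, minus strand), stood at 41.2 and 72.6 CP100k (0.82, 0.65 to 0.99). It was higher in the selected cells too (1.04), and in AT1 droplets (0.52), endothelial droplets (0.72), leukocyte droplets (1.1) and free RNA (0.81).

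NF-kB targets and cytokines, genes of the inflammatory response, had a small difference in the extended set, from 153 to 190 CP100k (0.31, 0.22 to 0.41). Of 8 genes with at least 100 UMIs, 1 was past 1.5-fold higher, 0 lower and 6 above 0. That gene, Cxcl2, a chemokine that recruits neutrophils, stood at 6.73 and 16.7 CP100k (1.31, 0.91 to 1.74). Its ratio turned to −1.0 among cells with 2000 to 8000 UMIs and to −0.57 with possible doublets left out, and free RNA was estimated to supply 19.6% of its UMIs in TCM. The adhesion molecule Icam1 stood at 35.5 and 48.1 CP100k (0.44, 0.25 to 0.63), the NF-kB inhibitor Nfkbia at 46.0 and 56.0 (0.28, 0.11 to 0.46), and the chemokine Cxcl1 at 17.5 and 19.6 (0.17, −0.12 to 0.46). The list was lower in TCM in the selected cells (−1.07), with Nfkbia at −1.52, and in the cleaned cells at −0.37.

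Among glucocorticoid-induced genes, 3 of 12 measured genes were past 1.5-fold higher in TCM in the extended set and 0 lower. The shares over all genes were 3.81% and 1.8%. Of the 12 genes, 8 were above 0. The list summed to 360 and 409 CP100k (0.18, 0.12 to 0.24). Zbtb16 (chr9:48654297-48836222, minus strand), a transcription factor gene strongly induced by glucocorticoids, stood at 2.21 CP100k in CM and 6.37 in TCM (1.53, 0.83 to 2.28). It was higher in endothelial droplets as well, from 10.0 to 20.1 CP100k (1.01, 0.81 to 1.20), and in free RNA (1.69). Glul, glutamine synthetase, stood at 12 and 19.9 CP100k (0.74, 0.42 to 1.07) and Klf9 at 11.6 and 17.6 (0.61, 0.28 to 0.95). Tsc22d3, another well-known target, had 8.64 and 8.58 CP100k (−0.01), and the clock and glucocorticoid gene Per1 4.12 and 2.21 (−0.90, −1.66 to −0.17) on 41 and 27 UMIs. The clock list as a whole was sparse, with 2 of 18 genes at 100 UMIs and a sum of 30.4 and 35.5 CP100k (0.22, 0.01 to 0.44). The glucocorticoid list was at −0.27 in the selected cells and at 0.39 in the cleaned cells.

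Most secreted defence proteins differed little, while Scgb1a1 and Lyz1 were held by few cells. Surfactant protein A (Sftpa1), which binds microbes, stood at 2816 CP100k in CM and 2961 in TCM in the extended set (0.07, 0.05 to 0.09). Lyz2, the general lysozyme gene (chr10:117277331-117282321), stood at 2054 and 2293 CP100k (0.16, 0.13 to 0.18), the chitinase-like protein Chil1 at 302 and 337 (0.16), the iron-binding protein Lcn2 at 119 and 116 (−0.04) and the antiprotease-like protein Wfdc2 at 356 and 304 (−0.23, −0.29 to −0.16). Of 11 measured genes 0 were past 1.5-fold higher and 1 was past 1.5-fold lower, and that was the club cell gene Scgb1a1. The list's ratio of −0.40 was 0.03 when the list UMIs of the richest droplet of each library were taken out of the sums but not of the totals.

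The neighbouring lysozyme gene Lyz1 (chr10:117287797-117292868) split the AT2 cells into few high and many low cells in both libraries. Its level was 342 CP100k in CM and 232 in TCM (−0.56, −0.63 to −0.49). At least 0.5% of UMIs came from Lyz1 in 25 of 153 CM cells (16.3%, 10.9 to 23.2%) and 26 of 204 TCM cells (12.7%, 8.50 to 18.1%), and these cells held 94.4% and 91.9% of its UMIs. In them Lyz1 stood at 1658 CP100k in CM and 1650 in TCM, and in the other cells at 23.8 and 21.7. The Lyz1-high cells had less Lyz2 than the others, 1446 against 2201 CP100k in CM and 1308 against 2439 in TCM. The genes are near copies, so that reads could be shared between them, and their split is uncertain to that extent. Chil1 was 418 against 274 CP100k in CM and 351 against 335 in TCM, and Sftpc, which the selection used, 24640 against 21703 in CM and 23686 against 22604 in TCM. Lyz1 was at 0.66 CP100k in endothelial droplets and 22.2 in free RNA in CM, and an estimated 0.125% of its CM UMIs in the extended set came from free RNA. The cells lie on a range of values, with 4 CM and 5 TCM cells near the limit. Lyz1 was at 0.73 in the selected cells, and at −0.81 without the richest droplets.

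Scgb1a1, the secretory protein of airway club cells, differed mainly through 1 droplet. It stood at 2867 CP100k in CM and 454 in TCM in the extended set (−2.66). One CM droplet of 55998 UMIs held 24423 of its 28536 UMIs, together with 1122 UMIs of Sftpc, 432 of Scgb3a2 and 438 of Cyp2f2, both genes of club cells. Without the richest droplet of each library the ratio was −0.42. Free RNA was estimated at 39.6% of its TCM UMIs, but Scgb1a1 is 1 of the 7 genes that scale this estimate. The share is therefore no separate measure of where these UMIs came from. The median cell held 7 UMIs in CM and 11 in TCM, and at least 1% of UMIs came from Scgb1a1 in 8 CM and 9 TCM cells. In the selected cells a CM droplet of 25676 UMIs held 5400 of 6210 UMIs, and the ratio moved from −2.64 to 0.10 without these UMIs and those of the richest TCM droplet. Cyp2f2 stood at 63.5 and 10.9 CP100k (−2.54), with 438 of the 632 CM UMIs in that droplet of the extended set.

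**Figure D5:**
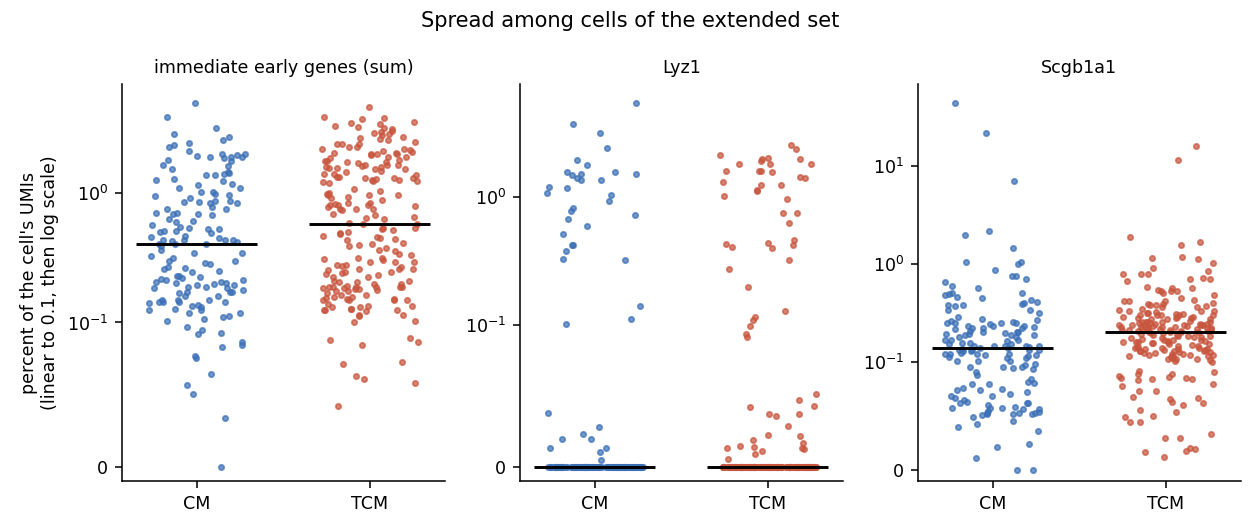
Each point is a cell of the extended set (153 CM, 204 TCM), with the percent of its UMIs from the immediate early list (left), Lyz1 (middle) and Scgb1a1 (right) on an axis that is linear to 0.1 and logarithmic above, and a bar at the median. Immediate early genes form a continuous range that reaches higher values in more TCM cells, Lyz1 forms a high and a low band in both libraries, and Scgb1a1 is low except in a few droplets.

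Antigen presentation and interferon genes gave no difference past 1.5-fold over a list in the extended set. MHC class II genes, which AT2 cells carry without stimulation, summed to 775 and 795 CP100k (0.04, −0.01 to 0.08), with 0 of 7 genes past 1.5-fold in either direction. The invariant chain Cd74 stood at 508 and 527 CP100k (0.05), H2-Aa at 110 and 115 (0.06) and H2-Eb1 at 44.2 and 38.8 (−0.19). The same list was at −1.11 in the selected cells and in the cleaned cells at −1.46. MHC class I genes were slightly lower in TCM, at 205 and 182 CP100k (−0.17, −0.26 to −0.08), with 1 of 9 genes above 0 and 0 past 1.5-fold. Type I interferon genes were low in AT2 cells, at 52.4 and 40.7 CP100k for 22 genes together (−0.37, −0.55 to −0.19). Of these, 3 reached 100 UMIs, of which 2 were past 1.5-fold lower, beside 1.8% of all genes. Bst2, which tethers viruses to the cell, stood at 6.43 and 3.19 CP100k (−1.01, −1.63 to −0.42), and Ifi27 at 15.2 and 9.56 (−0.67, −1.03 to −0.31). Over the alternatives this list ran from −0.77 to 0.01. Its ratio was 0.85 in leukocyte droplets, 0.07 in endothelial droplets and −0.19 in AT1 droplets.

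Chaperones of the heat shock response were lower in TCM as a sum, and those of the endoplasmic reticulum slightly higher. The heat shock list summed to 482 and 418 CP100k in the extended set (−0.21, −0.26 to −0.15). Of 10 measured genes 1 was past 1.5-fold lower and 0 higher, with a median of −0.33. The inducible Hsp70 gene Hspa1a stood at 8.84 and 5.47 CP100k (−0.69, −1.17 to −0.22), its partner Dnajb1 at 12.4 and 8.25 (−0.58, −0.98 to −0.19) and Hsp90aa1 at 62.9 and 48.1 (−0.39, −0.55 to −0.22), while the constitutive Hspa8 stood at 138 and 140 (0.02). The list was also lower in endothelial droplets (−0.40), leukocyte droplets (−0.49), AT1 droplets (−0.16) and free RNA (−0.24), and in the selected cells (−0.67). The unfolded protein response list summed to 290 and 320 CP100k (0.14, 0.07 to 0.21), with 13 of 14 genes above 0 and 0 past 1.5-fold. Its transcription factor Xbp1 stood at 14.3 and 18.2 CP100k (0.35, 0.04 to 0.67). Antioxidant genes were level (0.00, −0.05 to 0.06). Of these, Hmox1, the heme-degrading oxygenase, was past 1.5-fold higher, at 3.62 and 7.43 CP100k (1.04, 0.47 to 1.64), and 0 of the 15 measured genes were past 1.5-fold lower.

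The genes that define the cells differed little. The 20 identity genes summed to 7236 and 7856 CP100k (0.12, 0.10 to 0.13), 16 were above 0 and 0 past 1.5-fold. Abca3 stood at 68.8 and 79.7 CP100k (0.21), Etv5 at 24.7 and 29.6 (0.26), Nkx2-1 at 21.6 and 18.1 (−0.26, −0.54 to 0.02) and Epcam, the epithelial adhesion molecule, at 24.3 and 21.1 (−0.21). In the selected cells, 8 of the 12 identity genes with enough UMIs were past 1.5-fold higher in TCM, beside 15.1% of all genes there. The median of the 12 was 0.69, beside Sftpc shares of 13.8% and 18.7% of UMIs. Genes of the Krt8 transitional state, through which AT2 cells pass on their way to AT1 cells, were level in the extended set (0.02, −0.06 to 0.10). Krt8 itself stood at 31.9 and 28 CP100k (−0.19, −0.41 to 0.04), Nupr1 at 54.5 and 50.3 (−0.11), Cdkn1a at 11.8 and 17.4 (0.57, 0.23 to 0.90) and the growth factor Areg at 34.1 and 27.1 (−0.33). Hbegf was the 1 gene of 9 past 1.5-fold.

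AT1 genes outside the selection summed to 201 and 189 CP100k (−0.09, −0.17 to −0.00), with 3 of 10 genes past 1.5-fold lower and 0 higher. Over all genes 1.8% were lower and 3.81% higher by that fold. Over the 12 alternatives the list ran from −0.18 to 0.16 and kept its sign under 10. The selection limited Ager, Rtkn2 and Akap5, so the levels of other AT1 genes may be partly set by it. The transcriptional cofactor Hopx stood at 18.3 and 10.9 CP100k (−0.75, −1.08 to −0.42), with 10% of its UMIs in CM and 54% in TCM estimated to be free RNA. The water channel Aqp5 stood at 19.9 and 13.2 CP100k (−0.60, −0.91 to −0.29) with 0.93% and 3.6% of free RNA, and Sec14l3 at 18.4 and 11.4 (−0.68, −1.01 to −0.36), or −0.34 without the richest droplets. Gprc5a stood at 12 and 16.7 CP100k (0.49, 0.15 to 0.82). Genes of Wnt, FGF and growth factor signalling summed to 101 and 120 CP100k (0.25, 0.13 to 0.36), and each of the 6 measured genes was above 0 and 0 past 1.5-fold. Among them were the FGF receptor Fgfr2 at 15 and 19 CP100k (0.34, 0.04 to 0.65) and the feedback inhibitor Spry1 at 8.04 and 9.31 (0.21).

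Ion and water transport genes were higher in TCM in all 3 sets, which share cells. They stood at 0.72 in the selected cells, 0.57 in the cleaned cells and 0.25 in the extended set (301 and 357 CP100k, 0.18 to 0.31). The 20 identity genes stood at 0.59, 0.06 and 0.12 in these sets. Of the 12 measured transport genes in the extended set, 9 were above 0, 1 was past 1.5-fold higher and 1 lower. Scnn1a (chr6:125320659-125344943, plus strand), the alpha subunit of the epithelial sodium channel through which fluid leaves the alveolus, stood at 5.83 and 10.2 CP100k (0.81, 0.35 to 1.28), against a ratio of 0.21 in AT1 droplets and 0.92 in free RNA. In the selected cells Scnn1a had 11 and 2 UMIs and was lower in TCM per all UMIs. Atp1b1, the beta subunit of the sodium pump, stood at 88.5 and 116 CP100k (0.39, 0.27 to 0.51). The chloride channel Cftr stood at 11.2 and 14.5 CP100k (0.37, 0.02 to 0.73), and the lower gene was Aqp5. Lysosome and secretion genes differed little (0.09, 0.05 to 0.13), with 0 of 16 past 1.5-fold, and the proteases Ctsc and Ctsd stood at 65.0 and 79.6 CP100k (0.29) and at 10.1 and 13.6 (0.43). Cell adhesion and polarity genes were level (−0.02, −0.10 to 0.05), with 0 of 8 past 1.5-fold in the extended set.

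Complement and acute phase genes summed to 152 and 144 CP100k (−0.08, −0.18 to 0.02), and to a ratio of 0.30 without the richest droplets. Haptoglobin (Hp) stood at 86.8 and 66.3 CP100k (−0.39), and at 0.22 without them. Stat3, the transcription factor that signals for interleukin-6, stood at 11 and 16.2 CP100k (0.56, 0.22 to 0.91), Lbp at 16 and 19.5 (0.29, −0.01 to 0.59), and C3 at 9.95 and 12.5 (0.33, −0.04 to 0.71). Of the 7 measured genes 0 were past 1.5-fold in either direction in the extended set.

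Cell cycle genes were low, and 0 of 18 reached 100 UMIs. In CM, 1 droplet of 16962 UMIs held 195 of the list's 242 UMIs in the extended set, with 2763 UMIs of Sftpc, 21 of Top2a, 6 of Mki67 and 92 of the histone H2afz, and the TCM cells held 74 UMIs in all with at most 4 in a cell. The list ratio was −2.01 with this droplet and 0.28 without the richest droplet of each library.

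Of the genes named as lower in TCM in the extended set, Mid1 had a like ratio in every population examined. Mid1 (chrX:169685199-170005736, plus strand), which encodes a microtubule-bound ubiquitin ligase, stood at 8.04 CP100k in CM and 2.70 in TCM (−1.58, −2.21 to −0.97) and between −1.81 and −1.22 over the alternatives. The ratio was −1.15 in AT1 droplets, −1.62 in endothelial droplets, −1.74 in leukocyte droplets and −1.68 in free RNA. Ly6e (−1.49) had 77.9% of its TCM UMIs from free RNA by the estimate. Jpt1 stood at 7.74 and 3.59 CP100k (−1.11, −1.67 to −0.55), Cdk11b at 6.93 and 3.43 (−1.01) and Crip1 at 47.5 and 30.3 (−0.65). Cd14, S100a6, Tppp3 and Crip1 turned to the other direction under at least 1 alternative.

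Markers of other cell types moved with the libraries in these droplets. The 12 neutrophil markers summed to 138 and 163 CP100k in the extended set (0.25, 0.15 to 0.35). Of the 5 measured, 3 were above 0, 2 past 1.5-fold higher and 0 lower, beside 3.81% and 1.8% of all genes. In this list S100a8 and S100a9 stood at 2.71 and 2.91 CP100k in CM and at 14.0 and 17.5 in TCM. The free RNA estimate covered 92% and 100% of their TCM UMIs. In free RNA itself S100a8 stood at 51.9 CP100k in CM and 264 in TCM. The 12 lymphocyte markers together stood at 19 and 6.37 CP100k (−1.58), and 0 of them reached 100 UMIs. The 12 endothelial markers summed to 14.4 and 23.6 CP100k (0.72), with 49.2% and 88.9% covered by the free RNA estimate, and the 12 mesenchymal markers to 22.4 and 29.1 (0.38). The 12 macrophage and monocyte markers summed to 2061 and 2320 CP100k (0.17, 0.14 to 0.20), of which Lyz2 made 2054 and 2293. In this list C1qa and C1qb were at 0 in CM and at 79 and 67 UMIs in TCM, in 1.96% of the TCM cells each. The limit on other lineages counted the lymphocyte, endothelial and mesenchymal lists, so their levels in the extended set are partly set by it. In the selected cells the lymphocyte list was at −3.53, the endothelial list at −1.09 and the mesenchymal list at −0.96. The part of these droplets in the list ratios was not tested beyond the sets without them.

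Variation among cells within a library was led by the same kinds of genes. After thinning to 1000 UMIs, the genes with the highest Fano factor (variance over mean, about 1 for counting noise) in the extended CM set were Scgb1a1 (218), AY036118 (36.2), Lyz1 (20.3), Cst3 (14.4), Malat1 (12.3), Lyz2 (7.78), H2-Eb1 (6.23), Cyp2f2 (6.15), Sftpa1 (6.02) and Lcn2 (6.02). In TCM they were Scgb1a1 (52.9), Lars2 (15.3), Malat1 (14.2), Lyz1 (12.9), AY036118 (12), Lyz2 (6.87), Sftpa1 (5.28), Gem (4.98), Cxcl2 (4.97) and Neat1 (4.67). Lyz1 had a median of 0 thinned UMIs and a 90th percentile of 11 in CM and 9 in TCM, while Sftpa1 was present in every CM cell with a median of 27 and a 90th percentile of 47. Malat1 is a nuclear noncoding RNA. In the selected cells the highest were AY036118 in CM (75.0) and Malat1 in TCM (19).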

How the data were processed

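The authors prepared 10x Genomics 5′ (V1.1) libraries from whole lung, read them on a NovaSeq sequencer and used Cell Ranger for mapping and counting (version 4 by the matrix header, mm10, GRCm38.p6). The deposited matrices hold raw UMI counts per gene and droplet barcode, 737280 barcodes and 32286 features each, with no normalization. Seurat is also named in the submitters' processing notes. CD90.1, a feature the authors had added, had 0 UMIs in AT2 droplets.

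Members and gene lists were chosen with earlier results of these data known. Python 3.11.15, numpy 2.4.6, scipy 1.17.1, pandas 2.3.3 and matplotlib 3.10.9 were used. UMIs were summed over the cells of a library and divided by all their UMIs (CP100k). The 95% intervals are conditional binomial for ratios, Clopper-Pearson for shares and exact Poisson for summed UMIs. Ratios used 3 counts in place of a sum of 0, and pairs of sums that were both 3 or less got no ratio. A ratio without the richest droplets left out their UMIs of the gene or list and kept the totals. Each group had 1 library, so no test was run and no p-value computed. No doublet caller was run: doublets were limited by the negative sums of the selection, by leaving out droplets with other-lineage markers, and by an alternative that left out possible doublets. Thinning drew each cell down to 1000 UMIs without replacement and left shallower cells out. Free RNA per cell was scaled by 7 genes of erythroid and club cells. Per set, the named genes are the 12 highest and 12 lowest by the interval bound nearest to 0, among genes with at least 100 UMIs, a UMI in at least 10% of cells of the library where they were higher and at most 25% estimated free RNA there, without genes of the selection, lipid, mitochondrial, ribosomal, immunoglobulin or numbered model genes. List genes with most UMIs or the highest or lowest ratio were added, and other list genes were given with their list. Coordinates are from GENCODE vM21 on GRCm38. Scripts for ratios, intervals and repeated profiles were tested on simulated data. Repeated profiles, the cleaned cells and the extended set, and the alternatives on single droplets, were added after the data had been seen. Cells of 1 library are not replicates.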

Additional observations from a re-analysis of the deposited data

How the results depend on the processing

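No paired analysis was possible because each group had 1 library and no test was made. In the selected AT2 cells the counts of genes past 1.5-fold moved with most settings, and the number of genes with enough UMIs moved with many of them. Genes higher in TCM numbered 44, and 26 by the mean over cells, 12 after thinning, 22 in cells with 2000 to 8000 UMIs, 20 with 0 UMIs of both negative sums, 18 with possible doublets left out, 334 at a minimum of 20 UMIs, 22 without droplets of other lineages, 21 in the cleaned cells, 87 with the scaled AT1 limit and 93 in the extended set. Genes lower in TCM numbered 69, and in turn 44 with the median ratio set to 0, 29 after thinning, 29 with 0 UMIs of both negative sums, 34 without possible doublets, 507 at a minimum of 20 UMIs, 39 with repeated profiles counted once, 28 without droplets of other lineages, 31 in the cleaned cells and 44 in the extended set. The number of genes with enough UMIs was 292, also by the mean over cells and with the median ratio set to 0. It fell to 118 after thinning, 135 in the depth range, 111 with 0 UMIs of both negative sums and 103 without possible doublets. It was 196 with repeated profiles counted once, 170 without droplets of other lineages and 131 in the cleaned cells. It rose to 1789 at a minimum of 20 UMIs, 2796 with the scaled AT1 limit and 2439 in the extended set. The shares higher and lower were 15.1% and 23.6% in the selected and 16% and 23.7% in the cleaned cells. In the extended set they were 3.81% and 1.8%. With the median ratio set to 0 the split was 60 higher and 44 lower. Otherwise the cause was not tested.

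The AT2 share moved to 4.44% in CM and 3.70% in TCM when the selection was applied after thinning, to 3.12% and 2.96% with the scaled AT1 limit and to 1.92% and 2.65% in the extended set.

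Of the genes and lists past 1.5-fold in the selected cells, the following turned direction. Lists within 1.5-fold turned too: secreted defence proteins (−0.22) kept their sign under 8 of 16 alternatives, and immediate early (−0.52) and glucocorticoid-induced genes (−0.27) under 11 of 16 each. Lyz1 (0.73) was −0.23 after thinning, −0.62 with 0 UMIs of both negative sums, −0.51 with the scaled AT1 limit and −0.56 in the extended set. Scgb1a1 (−2.64) was 0.32 in cells with 2000 to 8000 UMIs, 0.15 with 0 UMIs of both negative sums, 0.43 without possible doublets, 0.51 without droplets of other lineages and 0.55 in the cleaned cells. Ly6a was 0.17 in cells with 2000 to 8000 UMIs. Malat1 was −0.074 and Neat1 −0.28 at a maximum of 5% mitochondrial UMIs. Atf3 was 0.10 in the cleaned cells. Type I interferon genes were 0.043 in cells with 2000 to 8000 UMIs and 0.020 without possible doublets. With the scaled AT1 limit NF-kB genes were 0.16, Lrg1 −0.038 and Nfkbia 0.063. In the extended set MHC class II was 0.037, NF-kB genes 0.31, Lrg1 −0.15, Lcn2 −0.039, Inmt 1.92, Atf3 0.13, H2-Aa 0.064 and Nfkbia 0.28.

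In the extended set, 93 of 2439 genes were higher (3.81%) and 44 lower (1.8%). The mean over cells gave 69 of 2439 lower, and droplets of other lineages kept 67 of 2576 lower. Thinning gave 20 higher and 8 lower of 345 genes, and cells with 2000 to 8000 UMIs 57 and 19 of 1336. Leaving out possible doublets gave 44 and 13 of 978, and a minimum of 20 UMIs 919 and 587 of 7750. In cells with 2000 to 8000 UMIs Cxcl2 turned to −1.0, Tppp3 to 0.14, Cd14 to 0.63 and S100a6 to 0.076. Without possible doublets the cell cycle list turned to 0.53, Cxcl2 to −0.57, Tppp3 to 0.20, S100a6 to 1.17 and Crip1 to 0.10. The list of immediate early genes (0.39 to 0.70), NF-kB genes (0.23 to 0.40), glucocorticoid-induced genes (0.14 to 0.51), ion and water transport (0.12 to 0.28) and heat shock chaperones (−0.26 to −0.06) kept their sign under all 12 alternatives.

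With 1 library per group, differences between mice, lungs and preparations cannot be told apart from those between CM and TCM. At least 100 UMIs were reached by 292 genes in the selected cells and by 2439 in the extended set, which held more cells and deeper ones.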
